A study of Rattus norvegicus with 4 samples.

Results

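7 mature microRNAs of the nervous system, taken by name, were followed through the extracellular vesicles (EVs) of 2 rat cell lines. They are rno-miR-9a-5p, rno-miR-9a-3p, rno-miR-124-3p, rno-miR-128-3p, rno-miR-129-5p, rno-miR-129-2-3p and rno-miR-218a-5p, written below without the species prefix. All 7 are among the 762 names of the table that covers all 4 libraries, and 5 are among the 594 names of a second table of PC12 vesicles alone. RMT1, labelled a breast cancer cell, gave 2 vesicle libraries, and the design text states that its vesicles were spun out of culture medium by ultracentrifugation. PC12, labelled a catecholamine cell, derives from a rat pheochromocytoma, which is an adrenal medulla tumour, and is represented by 1 EVd and 1 EVu library. What the letters d and u stand for is not in the labels, which also name no treatment, culture, time or passage for any library. No label states whether the RMT1 pair stems from different cultures or whether both lines were prepared together, so cell line and preparation cannot be told apart, and p-values measure only a spread that may be technical.

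A microRNA is cut from a hairpin RNA, one or both arms of which are loaded into a silencing complex, and it finds messenger RNAs mainly through its seed, bases 2 to 8. miR-124 and miR-9 rise as neural precursors become neurons and repress non-neuronal genes and the progenitor factor REST. miR-128 limits the excitability of neurons, miR-129 acts at synapses, and miR-218 is abundant in motor neurons and restrains genes of other neuron types.

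RefSeq sequences of build GRCr8 were matched for 6 of the 7 names, all but miR-124-3p, and are shown because the seed and the number of hairpins decide what a count can stand for. Capitals mark the seed.
miR-9a-5p: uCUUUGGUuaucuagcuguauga
miR-9a-3p: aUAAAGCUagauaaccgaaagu
miR-128-3p: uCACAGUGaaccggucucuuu
miR-129-5p: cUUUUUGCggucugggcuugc
miR-129-2-3p: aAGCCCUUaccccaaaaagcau
miR-218a-5p: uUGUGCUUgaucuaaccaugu

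The 6 seeds differ from each other. Among 693 mature rat names in the RefSeq table, only that of miR-129-2-3p is shared, by 1 name, miR-129-1-3p. Most members come from several hairpins with the same mature sequence, so their counts cannot be given to 1 locus. miR-9a-5p lies at chr1:142849415-142849437, chr2:15933307-15933329 and chr2:175974986-175975008, all on the plus strand, and miR-9a-3p is the other arm of the same 3 hairpins. miR-128-3p lies at chr8:120963807-120963827 on the minus strand, within Arpp21, and at chr13:42251933-42251953 on the plus strand, within R3hdm1. miR-218a-5p lies at chr10:20572547-20572567 on the plus strand, within Slit3, and at chr14:66922413-66922433 on the minus strand, within Slit2, the genes of a pair of axon guidance proteins. miR-129-5p lies at chr3:100657448-100657468 on the minus strand and at chr4:58589716-58589736 on the plus strand, and miR-129-2-3p is the other arm of the chr3 hairpin alone.

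The hairpins of miR-129 show which of its arms can be traced to a locus. Capitals mark the mature arms.
Mir129-2: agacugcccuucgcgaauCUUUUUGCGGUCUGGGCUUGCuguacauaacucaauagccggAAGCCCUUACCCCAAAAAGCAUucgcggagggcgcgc
Mir129-1: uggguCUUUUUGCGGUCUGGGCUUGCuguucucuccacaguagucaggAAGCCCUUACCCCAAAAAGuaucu

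The first 19 bases of the 22-base miR-129-2-3p are the whole of miR-129-1-3p. A read of miR-129-2-3p that lacks its last 3 bases is therefore the same as miR-129-1-3p, and the split between these arms is uncertain.

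In the table of all 4 libraries the counts summed to 799224 in RMT1 EV 1, 716940 in RMT1 EV 2, 338233 in EVd and 436840 in EVu. A count of 0 allows up to 3 counts, a share of 0.000375%, 0.000418%, 0.000887% and 0.000687% of these libraries. Intervals and such floors cover counting error only. The labels of both lines were checked against marker microRNAs. The 6 epithelial names (miR-200 family and miR-205) summed to 11957 and 11541 CPM (counts scaled to the same library total) in RMT1, against 88.7 in EVd and 137 in EVu, and none of the 6 was at 0 in any library. Of the endocrine microRNA miR-375-3p, RMT1 vesicles had 0 counts in either library, against 1023 in EVd and 2899 in EVu. The other neuroendocrine name, miR-7a-5p, was present in RMT1, with 1187 and 1130 counts, against 6059 in EVd and 6901 in EVu. Both names summed to 1485 and 1576 CPM in RMT1, against 20938 in EVd and 22434 in EVu. White blood cell names (3) were also lower in RMT1, at 6.26 and 0 CPM, against 85.7 in EVd and 1044 in EVu. Red blood cell names (3) did not follow this pattern, at 16.3 and 19.5 CPM in RMT1, against 8.87 in EVd and 570 in EVu. Nor did a liver name, at 41.3 and 37.7 CPM in RMT1, against 26.6 in EVd and 96.1 in EVu. The part of such cell types in the differences below was not tested.

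The neural microRNAs were a visible part of PC12 vesicles and a trace in RMT1 vesicles. The 7 names summed to 109 and 89 counts in RMT1, against 8560 in EVd and 16758 in EVu. As a share of all counts this was 0.0136% (95% exact binomial interval 0.0112% to 0.0165%) and 0.0124% (0.00997% to 0.0153%) in the RMT1 libraries, against 2.53% (2.48% to 2.58%) in EVd and 3.84% (3.78% to 3.89%) in EVu. The mean share was 0.0130% ± 0.000866 (SD, n = 2) in RMT1. The pooled share was 250.1-fold lower in RMT1 (counting interval 217 to 289). With let-7 and miR-98 left out of the totals it was 99.6-fold lower (86.6 to 115). The groups do not overlap, but an exact two-sided permutation test over 2 against 2 libraries gives p = 0.333, the smallest this design allows. Fewer cells or vesicles that carry a microRNA and fewer copies in each cannot be told apart in such bulk libraries.

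**Figure D1:**
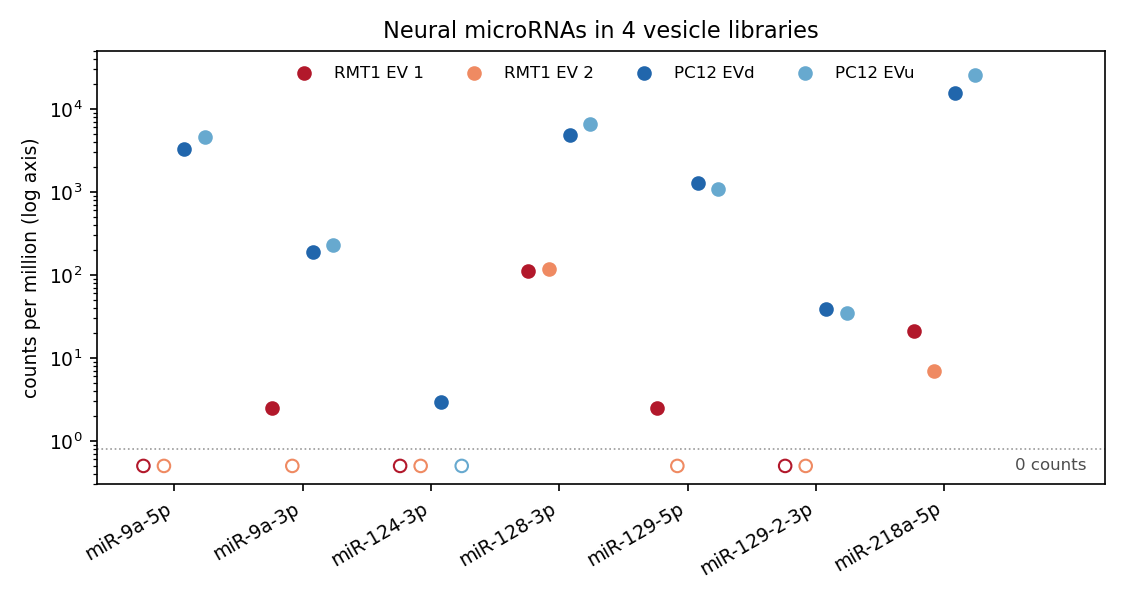
CPM of the 7 neural microRNAs (log axis) in RMT1 EV 1 and 2, PC12 EVd and PC12 EVu, 1 point per library, from the table of all 4 libraries. Open circles under the dotted line are libraries with 0 counts. miR-128-3p and miR-218a-5p are the names with counts in both RMT1 libraries, and every PC12 point lies above the RMT1 points of its name except in EVu for miR-124-3p.

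The mix of members differed between the lines. miR-218a-5p made up 61.6% of the members' counts in EVd and 67.4% in EVu, but 15.6% and 5.62% in the RMT1 libraries. There miR-128-3p led, with 80.7% and 94.4%, against 19.3% in EVd and 17.1% in EVu. In both PC12 libraries the order of shares was miR-218a-5p, miR-128-3p, miR-9a-5p, miR-129-5p, miR-9a-3p, miR-129-2-3p and miR-124-3p, and the counting intervals of no neighbours in that order overlapped.

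miR-218a-5p, the motor neuron microRNA, was by far the most abundant member in PC12 vesicles. It had 17 and 5 counts in RMT1, against 5277 in EVd and 11289 in EVu. Both RMT1 libraries were low and lay far under both PC12 libraries, where the name held rank 18 of 762 in EVd and rank 13 in EVu. The RMT1 libraries differed from each other, with a ratio of shares of 3.05 (counting interval 1.08 to 10.6) of RMT1 EV 1 over RMT1 EV 2. On the authors' log2 scale miR-218a-5p was at 5.07 and 3.63 in RMT1, against 13.21 in EVd and 13.88 in EVu. The difference RMT1 minus PC12 was -9.19 ± 0.82 (SE; limma, Benjamini-Hochberg adjusted p = 0.0318).

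miR-128-3p, which dampens neuronal excitability, was the leading member in RMT1 vesicles. It had 88 and 84 counts in RMT1, against 1649 in EVd and 2862 in EVu. The RMT1 libraries agree within counting error, with a ratio of shares of 0.940 (0.689 to 1.28), and averaged 114 ± 4.99 CPM (SD, n = 2), against 4875 CPM in EVd and 6552 CPM in EVu. On the authors' scale the log2 difference RMT1 minus PC12 was -4.14 ± 0.15 (SE; limma adjusted p = 0.0137). By pooled shares of library totals miR-128-3p was 51.3-fold lower in RMT1 (44.1 to 60.1), but 17.7-fold with the authors' scaling.

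miR-9a-5p, which promotes neuronal differentiation, had 0 counts in both RMT1 libraries, against 1124 in EVd and 2018 in EVu. Allowing 3 counts over both RMT1 libraries, its share of library totals was at least 2049-fold lower in RMT1. With the authors' scaling the bound is at least 635-fold. limma called it (adjusted p = 0.00225), but the call does not rest on a measured spread, since 0 in both RMT1 libraries sets their spread to 0. Its partner arm miR-9a-3p had 2 and 0 counts in RMT1, against 63 in EVd and 101 in EVu. The ratio of pooled shares was 160.4 (43.7 to 1336) in favour of PC12, and 62.6 with the authors' scaling. Its log2 difference of -5.96 ± 1.13 did not pass the threshold (limma adjusted p = 0.0723).

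miR-129-5p, a microRNA of synapses, had 2 and 0 counts in RMT1, against 433 in EVd and 473 in EVu. With so few RMT1 counts the ratio of pooled shares, 886 in favour of PC12, has a wide counting interval, 245 to 7328. With the authors' scaling the ratio was 356. limma gave -8.46 ± 1.13 with an adjusted p of 0.0489, close to the threshold. Without EVd the adjusted p was 0.0593 and without EVu 0.0604, so this call does not hold without either PC12 library. miR-129-2-3p had 0 counts in both RMT1 libraries, against 13 in EVd and 15 in EVu, at least 18.3-fold lower in RMT1 by library totals and, with the authors' scaling, at least 5.84-fold. It too was called (limma adjusted p = 0.000339) without a measured spread.

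miR-124-3p, the most brain-specific of the set in background knowledge, was nearly absent from the vesicles of both lines. It had 0 counts in both RMT1 libraries, against 1 in EVd and 0 in EVu, and no fold is given. In EVu, 0 counts at the floor of 3 allow a share of up to 0.000687%, and the PC12 table does not list the name. Its other arm, miR-124-5p, had 5 counts in EVd and 11 in EVu in the PC12 table, but 0 in each library of the other table.

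limma tested 278 names and called 37.1% of them lower in RMT1 and 70.1% in either direction. Of the 7 members 6 entered the test, 5 were called lower and 0 higher. Apart from miR-128-3p and miR-218a-5p these names passed the minimum mean of 10 only through their PC12 values, so that count describes the members and is no support for a shared change. miR-218a-5p and miR-128-3p were the members called with counts over the floor of 3 in both RMT1 libraries. Scaling by library totals in place of the authors' factors lowered differences by a median of 1.46 on the log2 scale, and the 6 members were below 0 under both.

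**Figure D2:**
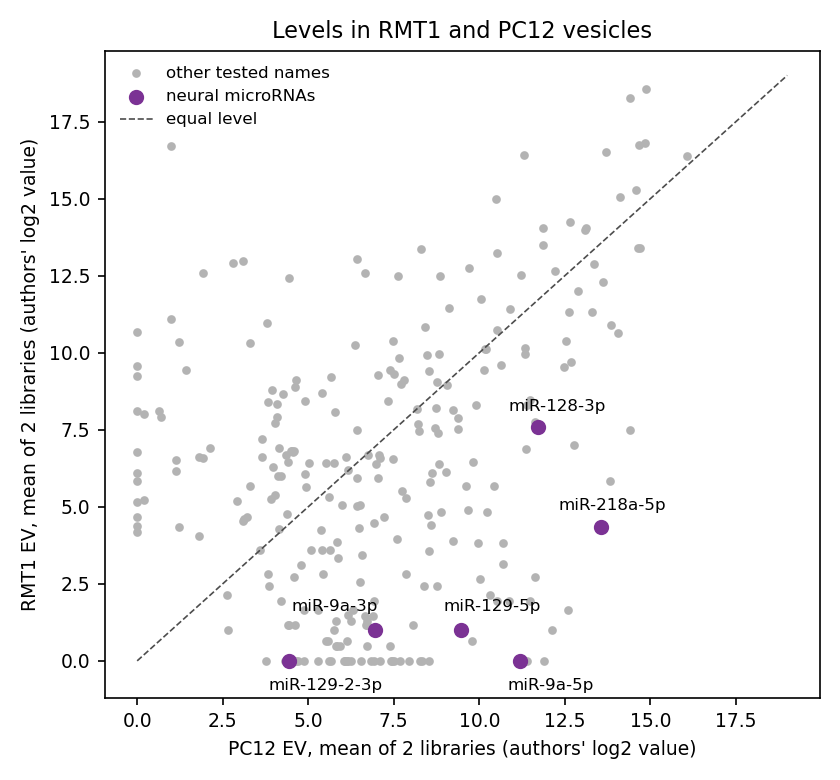
Mean of the authors' log2 values in the 2 RMT1 EV libraries (vertical axis) against the mean in PC12 EVd and EVu (horizontal axis) for the 278 tested names, with the dashed line at equal level. All 6 tested neural microRNAs lie below the line, miR-9a-5p and miR-129-2-3p at 0 in RMT1, among many other names that also lie below it.

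Between the PC12 libraries the 5 members of the PC12 table differed by less than 2-fold. EVd has 1 library and so has EVu, so no test was made and ratios carry counting error only. In the PC12 table miR-218a-5p had 5406 counts in EVd and 11800 in EVu, a log2 ratio of EVd over EVu of -0.72 (-0.77 to -0.67). miR-9a-5p had 1146 and 2143, a log2 ratio of -0.50 (-0.60 to -0.39). miR-128-3p had 1691 in EVd and 3009 in EVu, at -0.43 (-0.51 to -0.34). These 3 abundant members were lower in EVd.

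miR-129-5p went the other way, with 446 counts in EVd and 511 in EVu, a log2 ratio of 0.21 (0.02 to 0.39). miR-9a-3p had 72 counts in EVd and 120 in EVu, at -0.33 (-0.77 to 0.10), an interval that holds 0. miR-129-2-3p, listed in the table of all 4 libraries only, stood at 0.16 (-1.03 to 1.33) from 13 counts in EVd and 15 in EVu, an interval that reaches past 2-fold both ways. Among the 472 microRNA names that averaged 10 counts or more, a difference of 2-fold or more was seen upward in EVd for 13.8% and downward for 6.99%, and 0 of the 5 members listed there reached it. The median log2 ratio of the 472 names was 0.06. Over 246 names in the table of all 4 libraries the balance was turned, with such a difference upward in EVd for 10.6% and downward for 13.01%, and a median of -0.19. In the table of all 4 libraries every one of these members kept its direction, from -0.73 for miR-218a-5p to 0.24 for miR-129-5p.

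EVu also carried more microRNAs of blood. In the PC12 table the 3 red cell names summed to 54.3 CPM in EVd and 617 CPM in EVu, and the 3 white cell names to 109 CPM in EVd and 1134 CPM in EVu, with none at 0. In the table of all 4 libraries the red cell names summed to 8.87 CPM in EVd, with 1 of the 3 at 0, and to 570.0 CPM in EVu. Their part in the lower members of EVd was not tested.

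**Figure D3:**
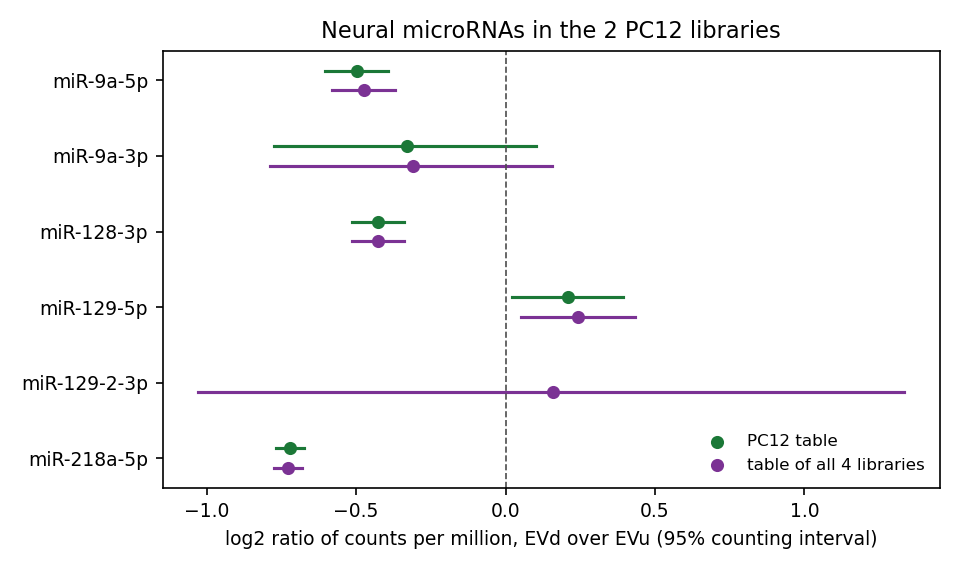
Log2 ratio of CPM, EVd over EVu, for 6 neural microRNAs, with 95% counting intervals as bars in green for the PC12 table and purple for the table of all 4 libraries. miR-218a-5p, miR-9a-5p and miR-128-3p lie below 0 in both tables and miR-129-5p above 0, while the intervals of miR-9a-3p and miR-129-2-3p cross 0.

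The arms of 1 hairpin can be set against each other within a library, free of any scaling. Of the counts of both arms, miR-9a-5p held 94.7% in EVd (exact interval 93.3% to 95.9%) and 95.2% in EVu (94.2% to 96.1%). In the PC12 table these were 94.1% (92.6% to 95.3%) and 94.7% (93.7% to 95.6%). miR-129-5p, which 2 hairpins can give, held 97.1% of its sum with miR-129-2-3p in EVd (95.1% to 98.4%) and 96.9% in EVu (94.98% to 98.3%). The intervals of EVd and EVu overlap for both pairs. In RMT1 the balance could not be measured, with 0 counts of miR-9a-5p and 2 of miR-9a-3p in all.

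The other arms of the miR-218 and miR-128 hairpins are specific to a locus, and 4 of them are printed because they differ in sequence where the main arms do not. Capitals mark the seed.
miR-218a-2-3p: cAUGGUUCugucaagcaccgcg
miR-218a-1-3p: aAACAUGGuuccgucaagcac
miR-128-1-5p: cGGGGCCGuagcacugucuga
miR-128-2-5p: gGGGGCCGaugcacuguaaga

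miR-218a-2-3p, from the Slit3 locus, had 0 counts in both RMT1 libraries, against 30 in EVd and 62 in EVu, and was at least 59.99-fold lower in RMT1 by library totals. It was the only 1 of the 9 other arms and paralogs with enough counts to be tested and was called lower, again without a measured spread (limma adjusted p = 0.000649). In the PC12 table miR-218a-2-3p had 43 counts in EVd and 72 in EVu, and miR-218a-1-3p, from the Slit2 locus, 53 in EVd and 25 in EVu. Of the sum of both, the Slit3 arm thus held 44.8% in EVd (34.6% to 55.3%) and 74.2% in EVu (64.3% to 82.6%). The Slit2 arm had a log2 ratio of EVd over EVu of 1.47, the opposite direction to miR-218a-5p itself. In the table of all 4 libraries, however, it had 1 count in EVd and 0 in EVu, so this split depends on the table. miR-128-2-5p, from Arpp21, had 25 PC12-table counts in EVd and 9 in EVu, and miR-128-1-5p, from R3hdm1, 24 in EVd and 30 in EVu. In the table of all 4 libraries miR-128-2-5p had 0 in both, and miR-128-1-5p had 2 in EVd and 9 in EVu.

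For the 5 members listed in both tables the counts hardly depended on the table. They had 0.842 to 0.981 times as many counts in the table of all 4 libraries as in the PC12 table. miR-124-3p and miR-129-2-3p are in the table of all 4 libraries only, the latter with 13 counts in EVd and 15 in EVu. Over the 520 names in both tables only 26.9% lay within 20% in EVd and 25.8% in EVu, and 38.3% in EVd and 34.6% in EVu had no count in the wider table. Those names were not matched to the members by their counts. A name given only as miR-129-3p had 18 counts in EVd and 22 in EVu in the PC12 table and was not taken as a member, since it does not say which hairpin it belongs to.

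Names annotated on the strand opposite to a member behaved differently. miR-218b lies across from miR-218a-5p at chr14:66922414-66922433 on the plus strand, and miR-9b-3p across from miR-9a-5p at chr1:142849418-142849435 and chr2:15933310-15933327 on the minus strand. Each is, over its full length of 20 bases for miR-218b and 18 for miR-9b-3p, the reverse complement of a stretch of that member. They are shown with their seeds in capitals.
miR-218b: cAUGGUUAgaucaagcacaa
miR-9b-3p: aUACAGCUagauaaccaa

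In the PC12 table miR-218b had 671 counts in EVd and 805 in EVu, and miR-9b-3p had 51 in EVd and 151 in EVu. Both had 0 counts in all 4 libraries of the other table. The log2 ratio of EVd over EVu was 0.14 (-0.01 to 0.29) for miR-218b and -1.16 (-1.65 to -0.69) for miR-9b-3p, and neither interval overlaps that of the member it faces. Whether counting used strand is not stated, so reads of these names and of the members across from them cannot be told apart in the PC12 table.

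**Figure D4:**
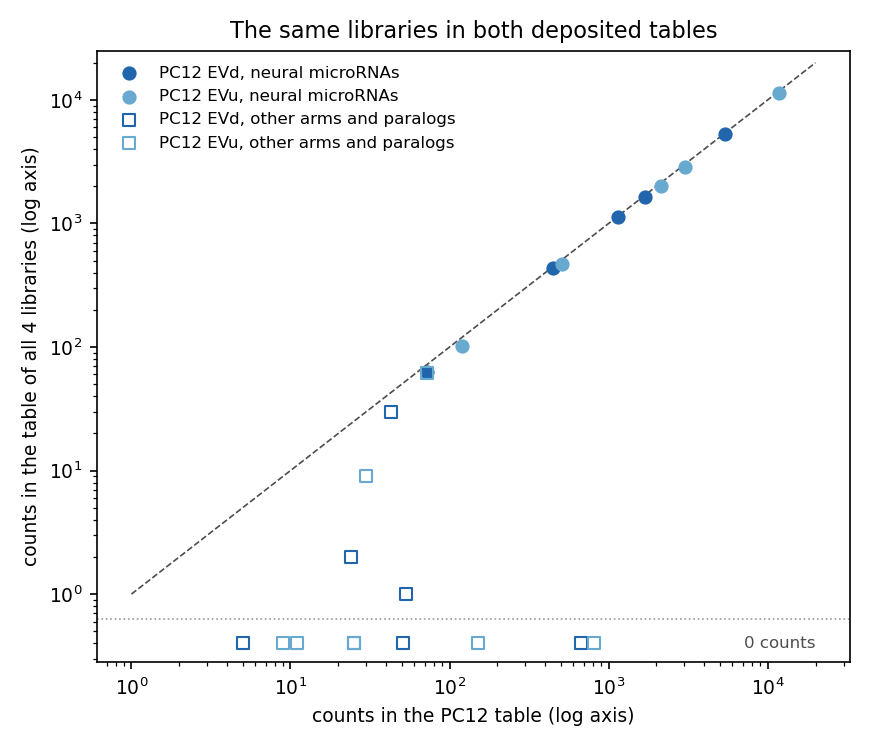
Counts of each name in the table of all 4 libraries (vertical, log axis) against the PC12 table (horizontal, log axis) for EVd and EVu. The neural microRNAs (filled circles) lie close to the dashed line of equal counts, while most other arms and paralogs (open squares) lie below it, several of them at 0 under the dotted line.

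The wider set of 23 other brain-enriched names was counted beside the members. Of these 11 were tested, of which 5 were called lower in RMT1, 0 higher and 6 not called, with 37.1% of all tested names called lower. Of the 5, miR-7a-5p alone had counts in RMT1. The others passed the minimum mean only through their PC12 values and were called without a measured spread. All 35 tested names at 0 in both RMT1 libraries were called lower, so the count of 5 is no support for a shared change. miR-7a-5p, of neurons and endocrine cells, was lower, with 1187 and 1130 counts in RMT1, against 6059 in EVd and 6901 in EVu (-1.97 ± 0.15, SE; limma adjusted p = 0.0280). miR-338-3p, of oligodendrocytes and neurons, had 0 counts in both RMT1 libraries, against 199 in EVd and 215 in EVu, at least 269.9-fold lower in RMT1 by library totals. The other 3 called, miR-137-3p, miR-153-3p and miR-219a-5p, were also at 0 in both RMT1 libraries, and had 13 to 49 counts in EVd and 16 to 43 in EVu in the table of all 4 libraries. Of these miR-153-3p depended on the table, with 22 counts in EVd and 16 in EVu there but 140 in EVd and 362 in EVu in the PC12 table, which turns its log2 ratio of EVd over EVu to -0.96, against 0.81.

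The abundant miR-125b-5p had 4835 and 4994 counts in RMT1, against 18179 in EVd and 16016 in EVu, and its difference of -1.28 ± 0.21 did not pass (limma adjusted p = 0.0623). miR-328a-3p had 10 and 18 counts in RMT1, against 576 in EVd and 472 in EVu (-4.76 ± 0.67, adjusted p = 0.0512 by limma). miR-149-5p had 249 and 318 counts in RMT1, against 64 in EVd and 112 in EVu, a difference of 2.25 ± 0.39 (adjusted p = 0.0643 by limma). It lay above 0 and, like miR-138-5p at 0.93 ± 0.16 (adjusted p = 0.0638 by limma), was not called.

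**Figure D5:**
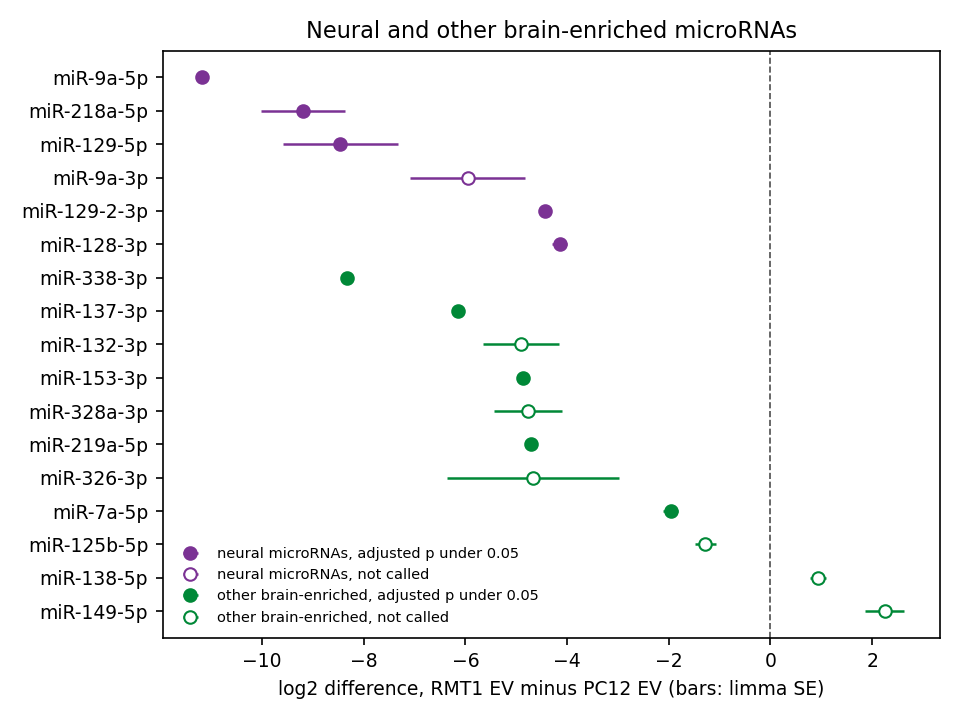
Log2 difference RMT1 EV minus PC12 EV of the 6 tested neural microRNAs and 11 other brain-enriched names, with limma standard errors as bars. Filled points have an adjusted p under 0.05. Names at 0 in both RMT1 libraries have bars too short to see because their spread is 0, and miR-138-5p and miR-149-5p are the points above 0.

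By Euclidean distance between log2(CPM + 1) profiles, centred over the 4 libraries, miR-375-3p was the nearest of 245 other names to miR-9a-5p, at 0.504 log2 units against a median of 9.62. miR-152-3p (0.806) and miR-10b-5p (1.29) followed. The nearest to miR-218a-5p was miR-101a-3p at 0.652, with a median over the 245 names of 8.30, and then miR-384-3p at 1.33 and miR-384-5p at 1.39. miR-148b-3p (0.378), miR-384-3p (0.618) and miR-29c-3p (1.16) were nearest to miR-129-5p. miR-146b-5p (0.321), miR-672-3p (0.428) and miR-150-5p (0.491) were nearest to miR-128-3p. For miR-9a-3p they were miR-181d-5p (0.469), miR-298-5p (0.479) and miR-296-3p (0.556). With 4 libraries of 2 lines these distances mainly reflect how far a name is from equal between lines, and names with few RMT1 counts are placed only roughly.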

How the data were processed

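EV microRNA was measured in 2 RMT1 EV libraries, 1 PC12 EVd and 1 PC12 EVu library. QIAzol and miRNeasy extraction and QIAseq miRNA libraries are named per the labels' protocols. Per the file headers, the PC12 table holds raw counts, and the authors' log2 normalized values in it equal the log2 of each count times 0.886 (EVu) or 1.15 (EVd). The other deposited table holds log2 values that the authors scaled over the 4 libraries, with 0 for no count. In each library 100% of the nonzero linear values were whole multiples (tolerance 0.1) of the value of 1 count (1.98 and 2.48 in RMT1, 1.79 in EVd, 1.34 in EVu), and dividing by it recovered the counts. The submitters' processing notes name the build mm10, a mouse build. The sources used here do not give the aligner, the counting program, the scaling method or whether unique molecules were counted.

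Shares have exact Clopper-Pearson 95% intervals (scipy 1.17.1), and ratios of shares the exact conditional binomial interval. RMT1 was compared with PC12 by limma 3.58.1 (trended prior) on the deposited log2 values, for names with a mean linear value of at least 10, in 3 groups, the contrast being RMT1 minus the mean of EVd and EVu. Only the RMT1 pair gives a spread, with 1 residual degree of freedom (prior 0.547). P-values were adjusted by Benjamini-Hochberg over 278 names at 0.05. edgeR 4.0.16 and DESeq2 1.42.0 served as alternatives on the recovered counts, and all 3 tools were tested on simulated data. The simulation gave EVd and EVu the same means. It is no support for calls made without a measured spread. EVd was set against EVu as log2(CPM + 1) ratios. The members were taken by name, all 7 are described, and other names were taken from lists and from the 3 nearest profiles. Members and lists were chosen with earlier results of these data known. Other settings and each library left out in turn were tried as alternatives.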

Additional observations from a re-analysis of the deposited data

How the results depend on the processing

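Under the 12 alternatives of the comparison of RMT1 with PC12, all tested members stayed below 0, and 4 to 6 of them were called lower, against 5. miR-128-3p and miR-218a-5p were called in all 12 and miR-9a-5p in the 11 that could show it, from -10.98 to -13.42 on the log2 scale. The exceptions were miR-129-5p, called in 8 of 12 with adjusted p-values of up to 0.0649, and miR-9a-3p, called in 6 of 11 with up to 0.0954, and the cause was not tested. For miR-129-2-3p DESeq2 gave -5.77 ± 3.67 (SE), an unadjusted p of 0.116 and no adjusted p, so it made no call. Over all names, 192 were called lower with no filter, against 103, where 440 names were tested. There 7 members were tested and 5 called lower, among them miR-124-3p from 1 count in EVd, without a measured spread. miR-129-5p and miR-9a-3p were not called in that setting. With a minimum mean of 100, 4 members were tested and 4 called lower, where 69 of all 157 tested names were called lower. edgeR called 6 of 6 members lower, and 145 of all 278 names. Leaving out 1 library gave 89 to 99 names called lower, 53 to 85 called higher (56 without RMT1 EV 1), against 92, and 4 to 6 members called lower. Without an RMT1 library, EVd and EVu formed 1 group, and the lone RMT1 library is assumed to vary like them. By library totals 30.6% of calls were higher, against 47.2%. Leaving out names at 0 in both RMT1 libraries was an alternative chosen after seeing the data. It called 4 of the 4 members left lower, miR-9a-3p among them (limma adjusted p = 0.0121). Of all 243 names tested there, 94 were called lower.

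For EVd against EVu all 25 alternative ratios of members lay within the counting interval of the main value. At least 2-fold higher in EVd were 26 of 246 names in the table of all 4 libraries, where 32 were lower, and 65 of 472 in the PC12 table, where 33 were lower. With a minimum mean of 100 counts 24 of 176 names were higher (13.6%) and 13 lower (7.39%), and with no minimum 54 of 528 were lower (10.2%). Without let-7 and miR-98 in the total, the members' share was 0.0444% and 0.0399% in RMT1, 3.23% in EVd and 4.98% in EVu. In the PC12 table it was 2.26% in EVd and 3.43% in EVu. No paired analysis was possible because the sample titles name no pairs of libraries. Depth limits miR-124-3p, and in RMT1 the 5 members at 2 counts or fewer.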
